A study of Drosophila melanogaster with 6 samples.

Results

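The cytosolic ribosomal protein genes of Drosophila were examined in wing disc cells that expressed RasV12 and in control cells that carried GFP-i. Genes were taken by symbol, as rows named RpL or RpS followed by a number, A or P, plus sta and oho23B, and without rows named as "like" copies. The rule found 88 genes among the 14233 rows of the count table, 38 of the small subunit and 50 of the large subunit, and 83 had enough counts to be tested. Relative to the other genes of each library, these mRNAs differed little between RasV12 and GFP-i cells. Counts are relative, so a change in mRNA per cell cannot be seen. RpL18 and RpS14b were the members called higher in RasV12, by log2 fold changes of 0.49 and 0.56, and no member was called lower. The 83 tested genes had a median log2 fold change of 0.19, against 0.02 over all 9134 tested genes. Of these 83, 77 lay above 0 in the main scaling and 48 with scaling by library totals.

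Cytosolic ribosomal proteins bind ribosomal RNA to form the small subunit, which decodes the mRNA, and the large subunit, which joins the amino acids. Their mRNAs are among the most abundant of growing cells, and the proteins are made in balanced amounts, since most surplus protein is degraded. In Drosophila, loss of a single copy of many of these genes gives the Minute phenotype of slow growth and thin bristles, and Minute cells are eliminated beside wild-type cells in the wing disc. Ras, Myc and TOR signalling are known as inputs to ribosome production in growing discs.

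The tissue was the wing imaginal disc of third-instar larvae, the epithelium that forms the adult wing and dorsal thorax. The RasV12 genotype carried ap-Gal4, myrT, RasV12 and TubGal80ts, where RasV12 is a mutant of the GTPase Ras that stays active. The control genotype carried ap-Gal4, myrT, GFP-i and TubGal80ts, and the labels do not spell out GFP-i. In both genotypes ap-Gal4 drives transgenes in the dorsal compartment, the temperature-sensitive Gal80 holds the driver off at 18 °C, and larvae spent 6 days at 18 °C and 3 days at 29 °C. Dorsal transgene-expressing cells were isolated by flow sorting, and 3' mRNA sequencing, which reads the end of each transcript, was done on 3 libraries per genotype. Whether replicates came from different larvae is not in the labels, and p-values therefore cover the spread of these libraries alone, which may be technical.

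The libraries held 11070295 to 15581752 counts. Levels are counts-per-million values (CPM) scaled by TMM, which sets libraries level on the bulk of genes, and 3 counts in a library corresponded to 0.177 to 0.281 CPM, for counting error only. Ras85D, the gene RasV12 derives from, had 54.2, 79.9 and 57.6 CPM in RasV12, against 41.2, 38.9 and 41.2 CPM in the GFP-i libraries. Its log2 fold change was 0.66 ± 0.17 (SE, n = 3 per group; edgeR quasi-likelihood adjusted p = 0.0248), and reads at the 3' end do not show whether they came from the transgene. This call was lost with scaling by library totals and when any single GFP-i library was left out, while the RasV12 libraries lay above the GFP-i libraries under both scalings. The dorsal selector gene ap was present in all libraries, with a mean ± SD (n = 3 each) of 236 ± 30.3 CPM in RasV12 and of 271 ± 40.98 CPM in GFP-i. Markers of other cells differed in both directions. The 6 haemocyte markers summed to 10.4 to 14.1 CPM in RasV12, against 16.8 to 29.6 CPM in GFP-i, with vkg and Col4a1 lower. The 5 muscle precursor markers summed to 55.7 to 65.96 CPM in RasV12, against 71.6 to 99.5 CPM in GFP-i, with Him, zfh1 and htl lower, while Mef2 of the same list had 46.8, 47.9 and 53.8 CPM in RasV12 and 35.1, 42.6 and 40.3 CPM in GFP-i (log2 fold change 0.33, edgeR adjusted p = 0.152). The 2 neuron markers summed to 39.8 to 49.5 CPM in RasV12 and 30.0 to 35.1 CPM in GFP-i. Neither was called, and their log2 fold changes were 0.48 and -0.67. The 2 trachea markers summed to 61.5 to 77.5 CPM in RasV12 and 64.8 to 99.0 CPM in GFP-i, and they moved in opposite directions. Of these, btl was called higher (log2 fold change 1.19). The other, trh, lay lower without overlap (-0.58) and was called by DESeq2 but not by edgeR. The 3 fat body markers summed to 0.0726 to 0.277 CPM in RasV12, against 0.301 to 1.30 CPM in GFP-i. Of the 6 wing disc markers nub, vg and rn were lower, and their sum was 823 to 943 CPM in RasV12, against 1203 to 1327 CPM in GFP-i. The part of these cell mixtures in the values below was not tested, and in bulk samples fewer cells of a type cannot be told apart from less RNA per cell.

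Ribosomal protein genes took a large share of the counts of every library, and this share differed between the genotypes by less than the spread between libraries. It was 28.1, 27.1 and 26.1% of all counts in RasV12 replicates 1, 2 and 3, against 27.8, 26.6 and 25.2% in GFP-i replicates 1, 2 and 3. The groups overlapped, with means of 27.1 ± 1.01% in RasV12 and 26.6 ± 1.32% in GFP-i (SD, n = 3 each), a difference of 0.519 percentage points. With ribosomal RNA and mitochondrial rows left out of the total, the share was 34.0, 32.1 and 31.4% in RasV12 and 33.5, 30.9 and 31.9% in GFP-i, and the groups overlapped again. The small subunit genes held 39.6, 39.9 and 39.7% of the ribosomal protein counts in RasV12 and 39.8, 39.8 and 39.7% in GFP-i, so the balance between the subunits was nearly the same in every library.

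**Figure D1:**
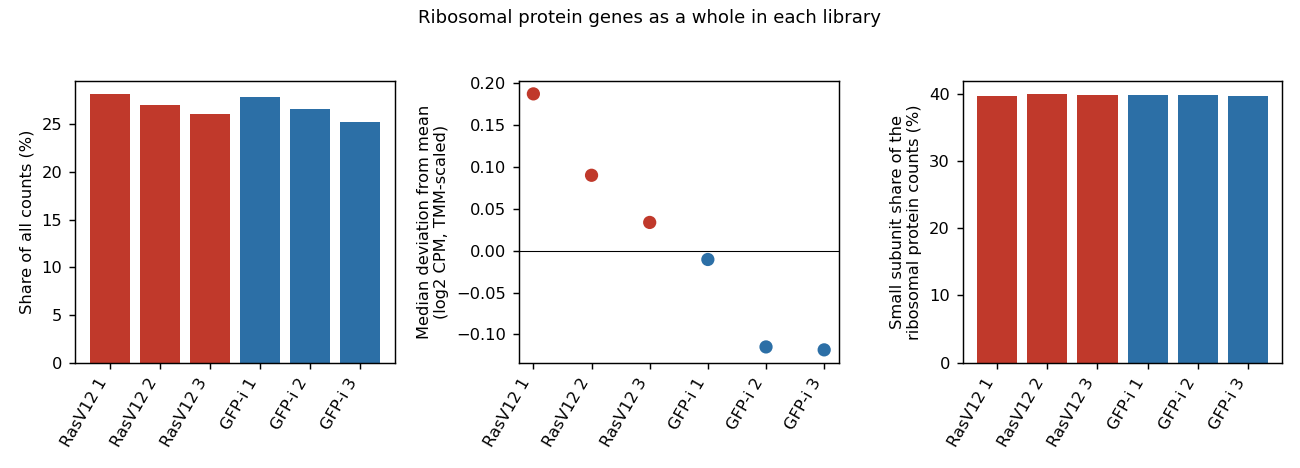
Ribosomal protein genes as a group in each library, RasV12 in red and GFP-i in blue. Left, their share of all counts in percent; middle, the median over 81 genes of the log2 deviation of TMM-scaled CPM from each gene's mean over the 6 libraries; right, the small subunit share of the ribosomal protein counts in percent. The raw shares of the genotypes overlap, the scaled medians run from 0.19 in RasV12 replicate 1 to -0.12 in GFP-i replicate 3 without overlap, and the subunit split stays between 39.6 and 39.9%.

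Scaling decided how the group as a whole was placed. The TMM factors were 0.913, 0.965 and 0.961 in RasV12 and 1.05, 1.09 and 1.03 in GFP-i, so TMM scaling raised RasV12 levels relative to GFP-i levels for every gene. After TMM scaling the median member lay 0.19, 0.09 and 0.03 log2 units above its mean in the RasV12 libraries and 0.01, 0.11 and 0.12 log2 units below it in the GFP-i libraries. Of the 83 tested members, 77 had a log2 fold change above 0 and 6 below 0 with TMM scaling, against 51.7% of all tested genes above 0. When libraries were scaled by their totals only, 48 members lay above and 35 below 0. Scaling by totals also moved the median of all tested genes, to -0.14 against 0.02 with TMM. Relative to the median of all genes, the median member was 0.18 log2 units higher under either scaling. A scaling factor moves all genes of a library alike, so this difference could hardly change with scaling. Leaving out single libraries gave 0.12 to 0.21.

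Few single members passed the test. Of the 83 tested members 2 were called higher in RasV12 at an adjusted p under 0.05, where 9.15% of all tested genes were called higher, and 0 were called lower, where 5.68% of all tested genes were. By DESeq2, 3 members were called higher and 0 lower, against 9.62 and 7.49% of all tested genes. At an unadjusted edgeR p under 0.05, 17 members were higher and 0 lower, against a background of 16.1% of tested genes higher and 12.2% lower. With TMM scaling the RasV12 libraries lay wholly above the GFP-i libraries for 28 members and wholly below them for 0, against 18.6 and 15.1% of all tested genes. With scaling by totals this held for 5 members above and 2 below (RpL10 and RpL38), against 12.7 and 23.7% of all tested genes. The calls changed with single libraries: leaving out RasV12 replicate 1, or either of GFP-i replicates 2 and 3, left 0 members called, leaving out GFP-i replicate 1 left 1, and leaving out either of RasV12 replicates 2 and 3 gave 5. RpL18 and RpS14b were among both sets of 5, with RpS21, RpL3 and RpL32 in the first and RpS14a, RpS16 and RpLP2 in the second. Without replicate 2 of both genotypes, an alternative chosen after seeing the data, 1 gene was called, RpS25.

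The small fold changes were measured with narrow errors. The median standard error was 0.13 log2 units over the members and 0.23 over all tested genes, and the mean level was at least 1000 CPM for 78 of the 83 members. For 63 members the 95% interval of the fold change lay within 1.5-fold in either direction. The other 20 include both called genes as well as RpS14a, RpS26, RpS16, RpL37A, RpL26, RpLP1, RpLP2 and RpL22. Among the 81 tested members with a mean of at least 10 CPM, log2 fold changes ran from -0.20 for RpL22 to 0.56 for RpS14b. Of these 81 genes, 61 lay between 0 and 0.3.

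**Figure D2:**
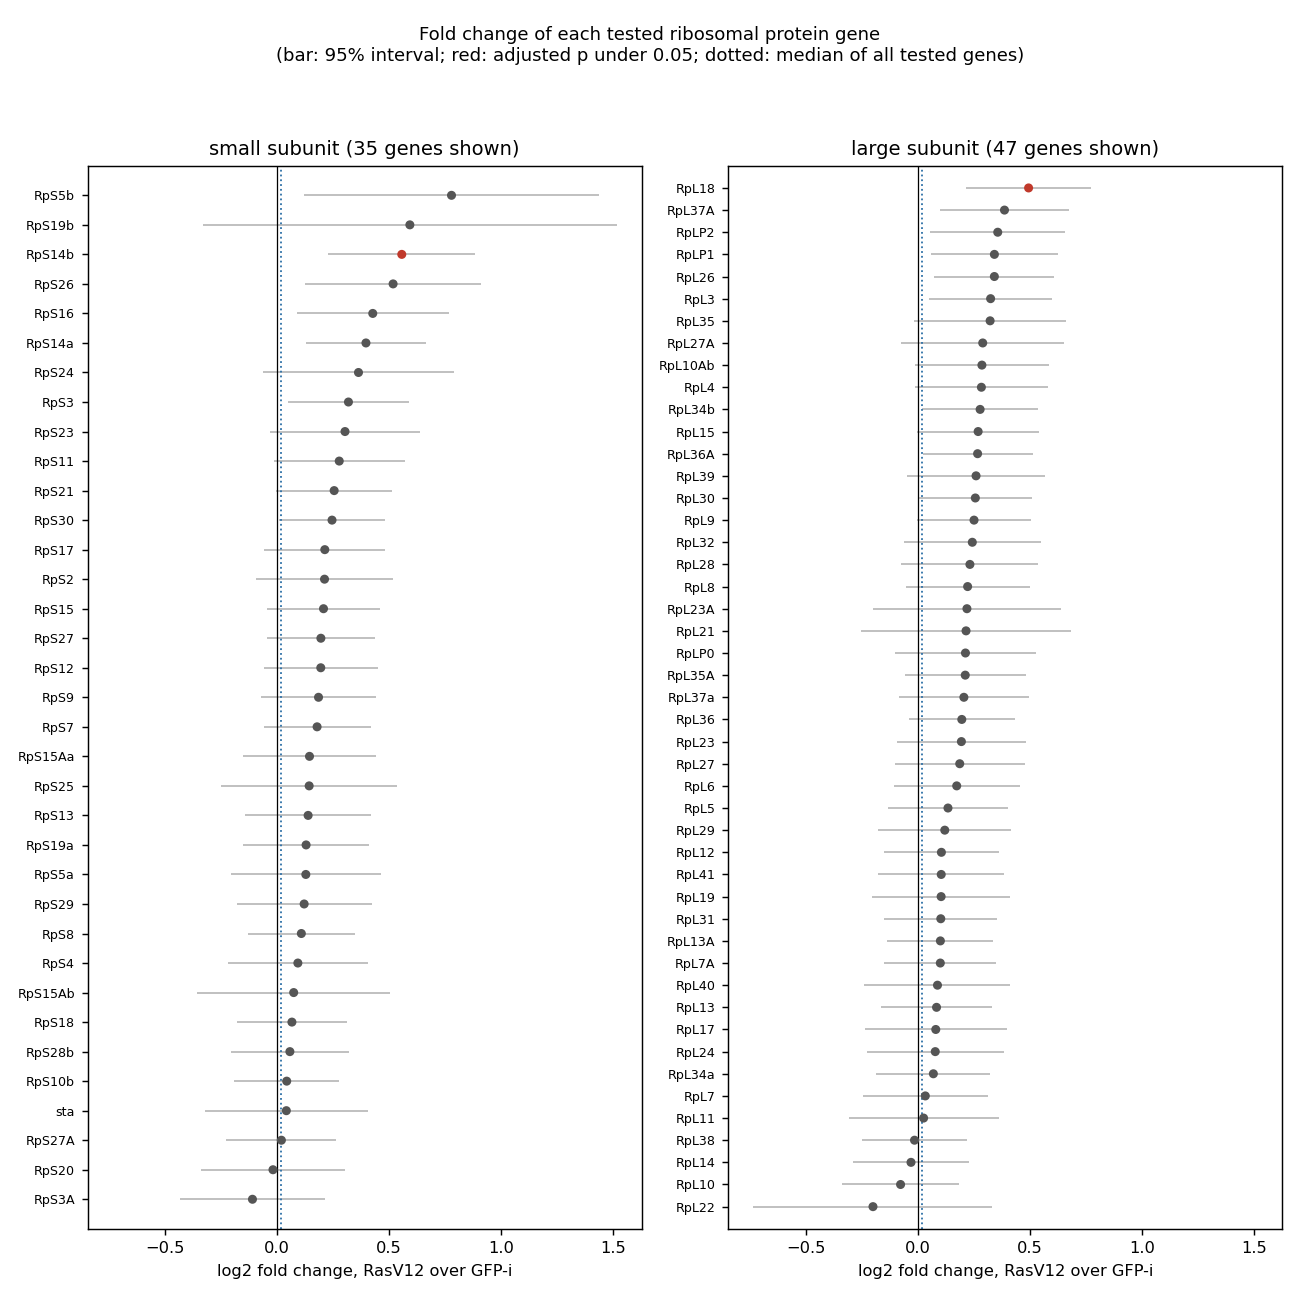
Log2 fold change of RasV12 over GFP-i for the 35 tested small subunit genes (left) and 47 of the 48 tested large subunit genes (right), with TMM scaling. Points are edgeR estimates, bars are 95% intervals, red points have an adjusted p under 0.05 and the dotted line is the median of all tested genes, 0.02. RpL18 and RpS14b are in red and RpL22 is lowest. Highest are RpS5b (0.78) and RpS19b (0.59), which have few counts and wider bars and are not called. With scaling by library totals 35 members lie below 0 and none is called.

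RpL18, a large subunit protein (3L, 7240203 to 7241351, dm6, minus strand), had 4705, 4426 and 3784 CPM in the RasV12 libraries, against 3241, 2788 and 3143 CPM in the GFP-i libraries. Every RasV12 library lay above every GFP-i library. The log2 fold change was 0.49 ± 0.12 (SE, n = 3 per group; edgeR adjusted p = 0.0252). The adjusted p was 0.101 without RasV12 replicate 1, and 0.0739, 0.126 and 0.124 without GFP-i replicates 1, 2 and 3, so each of these 4 libraries was needed for the call. Scaled by library totals, RpL18 was still higher in every RasV12 library, at a log2 fold change of 0.33 and an adjusted p of 0.0813. At its 3' end RpL18 shares 43 exonic bases, 5.69% of its transcript, with BHD on the other strand, and BHD held 16 to 48 counts in the RasV12 libraries and 15 to 32 in the GFP-i libraries.

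RpS14 is made from neighbouring genes on the X chromosome, RpS14a (7933742 to 7934677) and RpS14b (7934898 to 7935792), both on the plus strand and known to encode the same small subunit protein. RpS14b had 946, 982 and 765 CPM in RasV12, against 707, 532 and 593 CPM in GFP-i. The groups did not overlap with TMM scaling but did with scaling by totals, and the log2 fold change with TMM was 0.56 ± 0.15 (SE, n = 3 per group; edgeR adjusted p = 0.0309). The adjusted p passed 0.05 with RasV12 replicate 1 left out (0.112), with either of GFP-i replicates 2 and 3 left out (0.146 and 0.178), and with scaling by totals (0.0927). RpS14a had 5699, 5381 and 4599 CPM in RasV12, against 4219, 3822 and 3875 CPM in GFP-i. Its groups behaved in the same way under each scaling, but at 0.40 ± 0.12 it did not pass (edgeR adjusted p = 0.0534), whereas it passed by DESeq2 (adjusted p = 0.0441). How the counting divided reads between such near-identical copies is not given, so the 2 genes were also summed, an alternative chosen after seeing the data. Summed, RpS14 was higher by 0.42 ± 0.12 (edgeR adjusted p = 0.0455). In the authors' deposited table, which comes from their own DESeq2 comparison, the adjusted p was 0.0149 for RpL18, 0.0163 for RpS14b and 0.0705 for RpS14a, and the column of calls marked none of them.

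**Figure D3:**
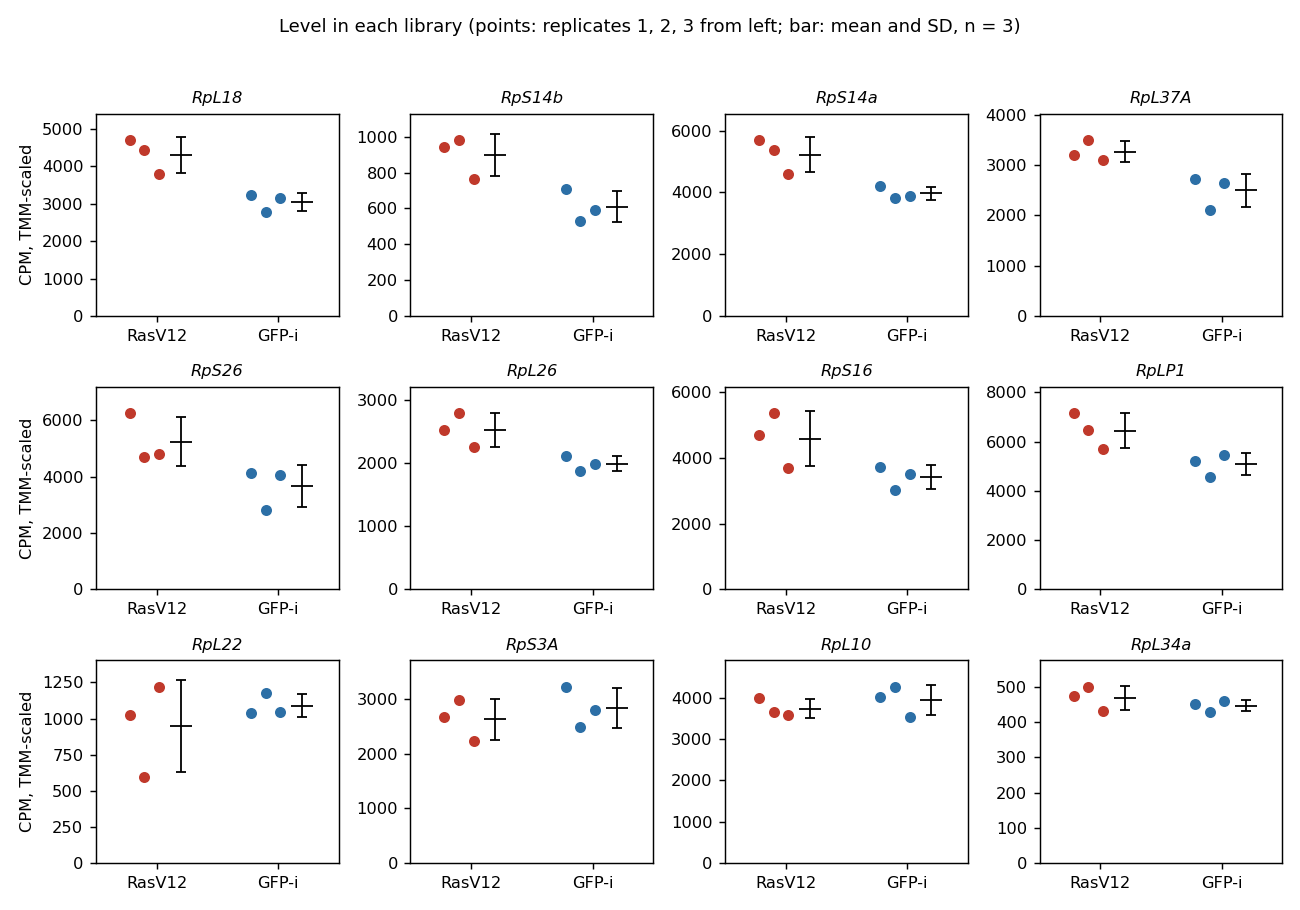
TMM-scaled CPM of 12 ribosomal protein genes in each library, RasV12 in red and GFP-i in blue; points run from replicate 1 to 3 and bars give the mean and SD (n = 3). RpL18, RpS14b, RpS14a, RpL37A, RpS26, RpL26 and RpLP1 do not overlap between the genotypes, of which RpS14b, RpS14a, RpL26 and RpLP1 overlap when scaled by library totals, while RpL22 has one low point, 595 CPM, in RasV12 replicate 2.

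Among the other small subunit genes none passed the test. In all, 1 of 35 tested small subunit genes was called higher, RpS14b, against 9.15% of all tested genes. The median log2 fold change over the list was 0.18. RpS26 had 6251, 4703 and 4800 CPM in RasV12, against 4124, 2807 and 4077 CPM in GFP-i. The groups did not overlap under either scaling, and the log2 fold change of 0.52 ± 0.18 had an edgeR adjusted p of 0.0816 (n = 3 per group). RpS16 had 4691, 5341 and 3685 CPM in RasV12, against 3704, 3004 and 3498 CPM in GFP-i, with RasV12 replicate 3 below GFP-i replicate 1. RpS12, which is known in Drosophila for its part in the recognition of Minute cells, was at 2842, 3195 and 2686 CPM in RasV12, against 2667, 2453 and 2504 CPM in GFP-i. Its groups did not overlap with TMM scaling, and its log2 fold change of 0.19 ± 0.11 had an adjusted p of 0.307. The gene sta, whose protein is the fly counterpart of the laminin receptor-like RpSA, had 6737, 4263 and 6228 CPM in RasV12, against 5733, 5698 and 5317 CPM in GFP-i. RasV12 replicate 2 was its lowest library and the other RasV12 libraries its highest. RpS21, also known as oho23B, had a log2 fold change of 0.25 ± 0.12 (adjusted p = 0.183) and passed without RasV12 replicate 2 (adjusted p = 0.0498).

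In the large subunit 1 of 48 tested genes was called higher, RpL18, against 9.15% of all tested genes, with a list median of 0.21. RpL37A had 3195, 3498 and 3092 CPM in RasV12, against 2730, 2112 and 2645 CPM in GFP-i, and its groups did not overlap under either scaling. Its log2 fold change was 0.39 ± 0.13 (edgeR adjusted p = 0.0772). Of its transcript 11.5%, or 81 bases, is shared with asRNA:CR45305 on the other strand, which held 1 to 7 counts in RasV12 and 1 to 6 in GFP-i. RpL26 had 2526, 2792 and 2260 CPM in RasV12, against 2119, 1881 and 1983 CPM in GFP-i, and at 0.34 ± 0.12 on the log2 scale it missed the threshold too (edgeR adjusted p = 0.0912).

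The stalk proteins RpLP0, RpLP1 and RpLP2 form the flexible arm of the large subunit that recruits elongation factors. RpLP1 had 7151, 6482 and 5712 CPM in RasV12, against 5209, 4588 and 5476 CPM in GFP-i, and RpLP2 had 6793, 6637 and 5216 CPM against 5204, 4370 and 4994 CPM. Neither gene overlapped between the genotypes with TMM scaling, and both overlapped with scaling by totals. The log2 fold changes were 0.34 ± 0.13 for RpLP1 and 0.36 ± 0.14 for RpLP2 (edgeR adjusted p = 0.108 and 0.116). RpLP0, which anchors the arm, was at 5098, 3521 and 4208 CPM in RasV12, against 3711, 3648 and 3716 CPM in GFP-i, and RasV12 replicate 2 lay below all GFP-i libraries. None of the 3 stalk genes passed the test, and 1 passed without RasV12 replicate 3, RpLP2 (adjusted p = 0.0466). As a share of the ribosomal protein counts, the stalk genes made up 6.18, 5.93 and 5.57% in RasV12 and 5.33, 5.15 and 5.79% in GFP-i, with overlap at RasV12 replicate 3 and GFP-i replicate 3.

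RpS27A and RpL40 are made as fusions with ubiquitin that are cleaved to release the ribosomal protein. RpS27A had 2886, 2701 and 2965 CPM in RasV12, against 3004, 2800 and 2638 CPM in GFP-i. RpL40 had 3944, 2752 and 3528 CPM in RasV12, against 3277, 3423 and 2926 CPM in GFP-i. Both overlapped, with log2 fold changes of 0.02 ± 0.11 and 0.09 ± 0.15 (edgeR adjusted p = 0.936 and 0.742), and both turned negative with scaling by totals (-0.14 and -0.08).

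The 6 members with log2 fold changes below 0 were RpL22, RpS3A, RpL10, RpL14, RpS20 and RpL38, and none passed the test. RpL22, whose fly protein carries a histone H1-like extension, had 1028, 595 and 1220 CPM in RasV12, against 1040, 1180 and 1047 CPM in GFP-i. The groups overlapped, and the log2 fold change of -0.20 ± 0.23 (edgeR adjusted p = 0.626) was 0.04 without RasV12 replicate 2. On the same strand, 34.3% of the RpL22 transcript is shared with lncRNA:CR42491, which was not used here, so reads there could belong to either. RpS3A, the single member on chromosome 4 (65225 to 67207), had 2683, 2980 and 2240 CPM in RasV12, against 3231, 2489 and 2813 CPM in GFP-i, and RpL10, whose yeast counterpart joins the large subunit late in its assembly, had a mean ± SD of 3740 ± 222 CPM in RasV12 and of 3947 ± 368 CPM in GFP-i (n = 3 each). The log2 fold changes were -0.11 ± 0.14 and -0.08 ± 0.12 (adjusted p = 0.666 and 0.712). RpL14, RpS20 and RpL38 lay at -0.03, -0.02 and -0.02, with adjusted p of 0.895 or more.

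Of the 88 genes, 18 form 9 pairs of duplicated copies, taken as symbols that differ only in a final a or b. The other 70 have no such partner among the members, which does not show that they are single-copy. In every pair most counts fell on a single copy, and the lesser copy held at least 10.2% in RpL34, RpS14 and RpS15A. RpL34a held 23.7, 23.1 and 22.5% of the counts of its pair in RasV12, against 24.3, 26.7 and 26.6% in GFP-i. The shares did not overlap, with means of 23.1 ± 0.555% in RasV12 and 25.8 ± 1.37% in GFP-i (SD, n = 3 each; exact two-sided permutation p = 0.1, the smallest that 3 against 3 allows, and 0.6 adjusted over the 9 pairs). In the same libraries RpL34b had 1528, 1665 and 1487 CPM in RasV12, against 1407, 1178 and 1276 CPM in GFP-i, while RpL34a had 474, 501 and 433 CPM against 451, 430 and 462 CPM. With TMM scaling RpL34b was thus higher in every RasV12 library and RpL34a overlapped, and with scaling by totals both overlapped. Neither gene passed the test, at log2 fold changes of 0.28 ± 0.12 and 0.07 ± 0.11 (edgeR adjusted p = 0.150 and 0.740). RpS14b held 14.2, 15.4 and 14.3% of its pair in RasV12, against 14.3, 12.2 and 13.3% in GFP-i, which overlapped (exact permutation p = 0.3), where no split of 3 against 3 can give a p under 0.1. RpS15Ab held 10.2, 12.6 and 10.7% in RasV12, against 12.1, 12.3 and 11.0% in GFP-i, which also overlapped (exact permutation p = 0.6).

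The remaining lesser copies were nearly absent. RpS5b, which is known for its expression in the female germline, had 5.23, 4.69 and 4.57 CPM in RasV12, against 1.88, 3.36 and 3.17 CPM in GFP-i, without overlap. Its log2 fold change was 0.78 ± 0.30 (edgeR adjusted p = 0.115), and it held 0.286 ± 0.0522% of its pair in RasV12 and 0.184 ± 0.0698% in GFP-i (SD, n = 3 each), which overlapped. RpS19b, another germline-enriched copy, had 1.38, 2.72 and 1.18 CPM in RasV12, against 1.13, 1.18 and 1.13 CPM in GFP-i, with RasV12 replicate 2 highest. RpL10Aa, RpL37b, RpS10a and RpS28a had at most 3 counts in any library and were not tested, while their partners RpL10Ab, RpL37a, RpS10b and RpS28b had means from 2029.6 CPM, for RpS10b in GFP-i, to 4389 CPM, for RpL10Ab in RasV12. Of the partners, RpL10Ab had a log2 fold change of 0.29 ± 0.13, RpL37a of 0.20 ± 0.13, RpS10b of 0.04 ± 0.10 and RpS28b of 0.06 ± 0.12, and none passed (adjusted p = 0.195, 0.343, 0.831 and 0.797). Likewise RpS5a, RpS15Aa and RpS19a stood at 0.13 ± 0.15, 0.14 ± 0.13 and 0.13 ± 0.13, and with scaling by totals all 3 were slightly below 0, at -0.03, -0.02 and -0.03. Over the 14 tested genes of the pairs 1 was called higher, where 9.15% of all tested genes were. Their median log2 fold change was 0.17, against 0.19 over the 69 tested genes outside the pairs.

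**Figure D4:**
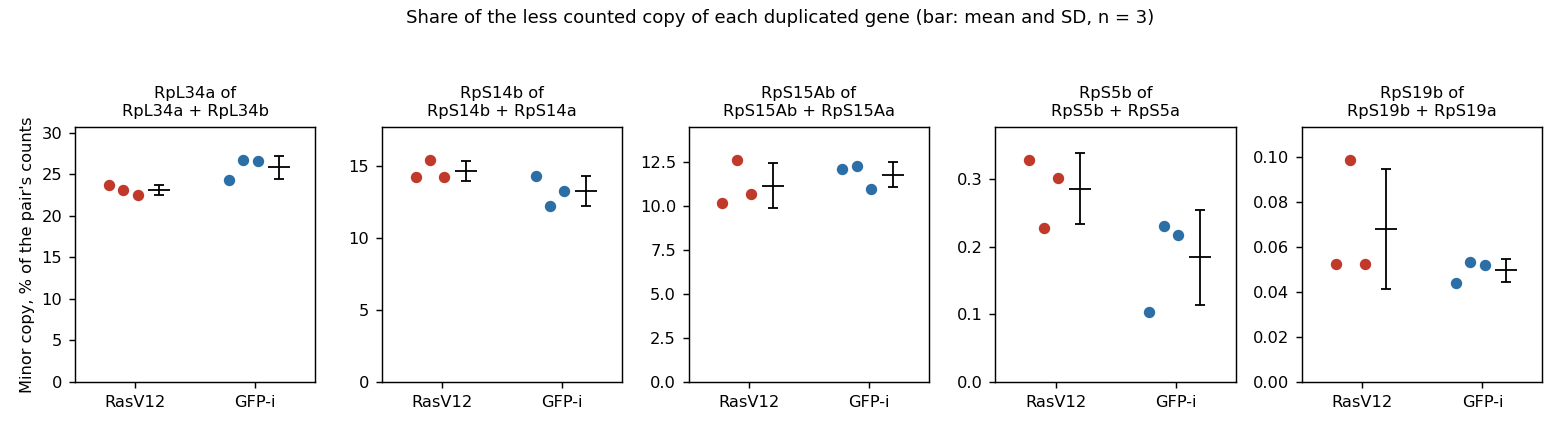
Share of the lesser copy in the counts of 5 duplicated pairs, in percent of the pair, for RasV12 in red and GFP-i in blue; points run from replicate 1 to 3, bars give the mean and SD (n = 3) and each axis starts at 0. RpL34a is the pair in which the genotypes do not overlap, with 22.5 to 23.7% in RasV12 and 24.3 to 26.7% in GFP-i.

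RpS6 (X, 7899624 to 7901331, minus strand), a target of the growth-regulated S6 kinase, was all but absent from the table. It had 0, 1 and 0 counts in RasV12 and 0, 1 and 0 counts in GFP-i, below the floor of 3 counts in each library, so it was not tested and no fold change is given. Of its exons 60 bases, 6.25% of its transcript, are shared on the same strand with the pseudogene CR33222, a row named here after its values were seen. CR33222 had 380, 219 and 599 counts in RasV12 and 384, 491 and 364 in GFP-i. Whether RpS6 reads were counted elsewhere or discarded was not tested, so the level of RpS6 mRNA in these cells is unknown.

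Each gene was also compared with the ribosomal protein genes of its own library, by a fit in which the summed counts of all members served as the library size. No member was called in this fit, where 16.1% of all tested genes were called in either direction. The fit sets the members level as a group, so a shift shared by them cannot show in it. Shares over all tested genes are therefore no like background for the members here. At an unadjusted edgeR p under 0.05 there were 3 members, RpS14b at 0.37, RpL18 at 0.30 and RpL10 at -0.27, against 31.5% of all tested genes. The adjusted p of these 3 was 0.103, 0.106 and 0.152, and leaving out any single library gave 0 calls and 1 to 5 members at the unadjusted threshold.

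Deviations within the group were read after the median deviation of the 81 genes was subtracted from each library. This removes any shift shared by the members, so a genotype difference of the group as a whole cannot show here. In what remained, a single library stood apart. RasV12 replicate 2 scored 2.08 on the first principal component of the 81 genes, which held 62.8% of the remaining variance. The other libraries scored between -1.09 and 0.10. In RasV12 replicate 2, 14 genes deviated from the group by more than 0.3 log2 units, against 2 and 3 in the other RasV12 libraries and 0, 6 and 0 in the GFP-i libraries. RpL22 was 0.83 log2 units below the group in RasV12 replicate 2, sta 0.49, RpS25 0.45, RpS20 0.43 and RpL11 0.41 below. RpS24 was 0.48 and RpL21 0.46 log2 units above the group in the same library. RpS25, RpL11, RpS24 and RpL21 were named for these values. RpS24 had 2698 CPM there, against 1938 and 1649 CPM in the other RasV12 libraries and 1924, 1441 and 1522 CPM in GFP-i. GFP-i replicate 2 was the next most uneven library, with RpS26 0.51 below and RpL22 0.36 above the group. RasV12 replicate 2 had the fewest counts (11070295), the largest mitochondrial share (5.31%, against 2.16 to 3.85% in the others) and 10.3% of counts in ribosomal RNA rows, against 10.1 to 17.3% in the others. The part of these differences in its values was not tested.

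**Figure D5:**
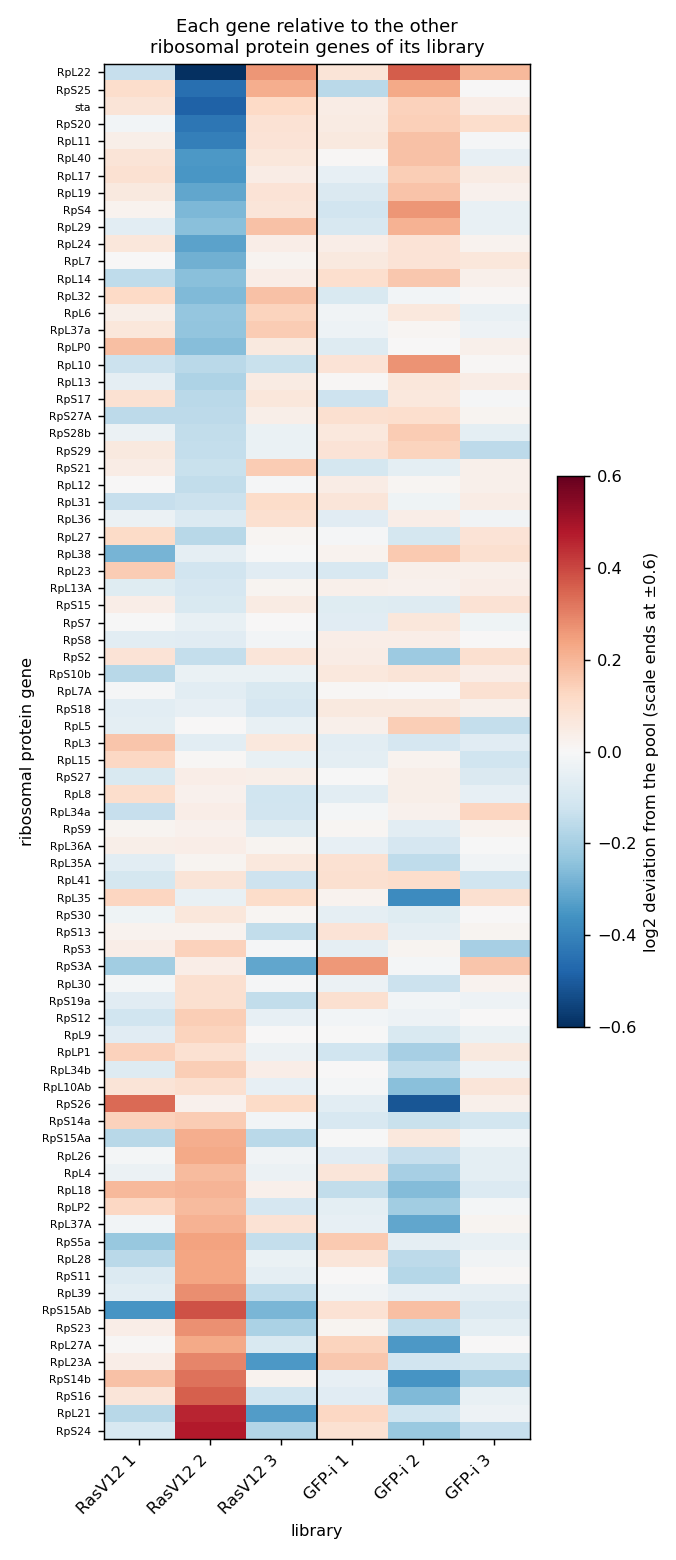
Log2 deviation of 80 of the 81 ribosomal protein genes from the other members in the same library, with rows ordered by their loading on the first principal component and libraries in columns, RasV12 left of the line and GFP-i right of it. Blue is below and red above the group, and colours saturate at 0.6. RasV12 replicate 2 has the strongest colours at both ends, from RpL22 at -0.83 to RpS24 at 0.48, and GFP-i replicate 2 has the lowest score on this component, -1.09.

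Log2 fold changes varied little with position and transcript structure. The tested members lay on all major arms, with median log2 fold changes of 0.21 on 2L (17 genes), 0.16 on 2R (18 genes), 0.22 on 3L (14 genes), 0.19 on 3R (19 genes) and 0.13 on X (14 genes). Annotated transcripts had a median length of 803 bases, a median coding length of 465 bases and a median 3' UTR of 150 bases. Over 74 members, Spearman's rho with the log2 fold change was -0.17 for transcript length, -0.17 for coding length, -0.20 for 3' UTR length and 0.15 for 5' UTR length. These are descriptions across genes that share the same 6 libraries, and all are weak. Exons of RpS20 and RpS28b share 44 and 55 bases with genes on the other strand, and those of RpS27A share 35 bases with Ip259 on the same strand.

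Other lists of the translation machinery were read in the same fit, where 9.15% of all tested genes were called higher and 5.68% lower. These lists were chosen with earlier results of these data known, so their counts cannot be read as an excess. None of the 7 tested elongation factors was called (0 at an unadjusted edgeR p under 0.05 and 0 by DESeq2), with a median log2 fold change of 0.07, and eEF1delta and eEF1alpha2 were at -0.26 ± 0.15 and -0.40 ± 0.25. None of 5 further abundant mRNAs of translation was called either, by the same 3 counts, with a median of 0.07, and Rack1, a component of the small subunit, was at 0.29 ± 0.14 (adjusted p = 0.216). Mitochondrial ribosomal proteins, a separate set of 73 tested genes, had 0 calls by edgeR and by DESeq2. At an unadjusted edgeR p under 0.05, 3 were lower, against 12.2% of all tested genes. The median was 0.01, with 43 genes above 0 and 30 below. The lowest p among them were those of mRpL39 and mRpL18, at -0.66 ± 0.26 and -0.57 ± 0.24 (adjusted p = 0.120 and 0.145).

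Among initiation factors, eIF5B and Thor were called higher. Of 27 tested initiation factors and their partners 2 were called higher and 0 lower. This is 7.41% called, against 14.8% of all tested genes in either direction, and the median log2 fold change was -0.02. At an unadjusted edgeR p under 0.05, 4 were lower, and by DESeq2 3 were, against 12.2 and 7.49% of all tested genes. Without RasV12 replicate 2, 3 were called lower, and with scaling by totals 4 were. eIF5B, which joins the subunits, had a mean ± SD of 405 ± 32.6 CPM in RasV12 against 153 ± 17.4 CPM in GFP-i (n = 3 each), a log2 fold change of 1.40 ± 0.13 (edgeR adjusted p = 9.9e-05). Thor, the fly 4E-BP, an inhibitor of translation when TOR is low, had 24.7 ± 0.403 CPM in RasV12 against 5.11 ± 1.39 CPM in GFP-i. Its log2 fold change was 2.28 ± 0.22 (edgeR adjusted p = 9.6e-05). Of 24 tested genes listed for ribosome assembly and RNA polymerase I, 5 were called lower and 1 higher, against 5.68% of all tested genes lower and 9.15% higher, with a median of -0.20. Lower were the nucleophosmin gene Nph (-0.79 ± 0.13), the nucleolar genes mbm (-0.66 ± 0.17), Nop56 (-0.59 ± 0.14) and Nnp-1 (-0.48 ± 0.14), and Rrp1 (-0.57 ± 0.13), which in Drosophila is known as a DNA repair nuclease rather than an assembly factor. The nucleolar GTPase gene Non1 was higher, with a mean ± SD of 1232 ± 221 CPM in RasV12 against 531 ± 131 CPM in GFP-i. The number lower was 3 when RasV12 replicate 1 or GFP-i replicate 2 was left out, 2 when RasV12 replicate 3 was and 1 when GFP-i replicate 3 was.

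Of 11 tested candidate regulators of ribosomal protein genes or of their mRNAs, 4 (36.4%) were called higher, where 9.15% of all tested genes were. None was called lower (0 lower at an unadjusted p under 0.05 and 0 by DESeq2). The list was chosen with earlier results of these data known, so its share of calls cannot be read as an excess. Xrp1, a transcription factor induced in Minute cells, had a mean ± SD of 1033 ± 131 CPM in RasV12 against 619 ± 36.6 CPM in GFP-i (n = 3 each; log2 fold change 0.74 ± 0.13, edgeR adjusted p = 0.00367). REPTOR and REPTOR-BP, which act in the transcriptional response to low TOR activity, were at 0.54 ± 0.15 and 0.96 ± 0.18 (edgeR adjusted p = 0.0428 and 0.00518). Thor, also counted above with the initiation factors, was the fourth. With single libraries left out, 2 to 5 were called higher, 2 without GFP-i replicate 3 and 5 without RasV12 replicate 2, and 1 was called lower without RasV12 replicate 2. The stress factor gene crc, S6k and Trf2, known for its part in transcription of ribosomal protein genes, were at 0.68 ± 0.27, 0.46 ± 0.17 and 0.26 ± 0.14 and did not pass (adjusted p = 0.139, 0.112 and 0.258). The same holds for Irbp18 at 0.05 ± 0.27, Tor at -0.06 ± 0.20, M1BP, which binds ribosomal protein promoters, at -0.02 ± 0.18, and Dref at -0.40 ± 0.24. Myc is not analysed here.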

How the data were processed

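The authors' single table holds, per the file headers, gene counts for the 6 libraries beside their own comparison. The values in the deposited count columns are integers that no scaling had touched. Per the file headers, baseMean is a signal, the mean of scaled counts. The authors' log2 fold changes with errors, statistic (a score), p-value columns and calls stand beside it. Per the submitters' processing notes, Trimmomatic 0.33, STAR 2.3.0e, bedtools 2.17 and DESeq2 were used with the build dm6. For the counting program and its strand setting, nothing is stated in the labels or headers.

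The whole table was tested with edgeR 4.0.16 (R 4.3.3), with TMM scaling, filterByExpr with a minimum count of 10, robust quasi-likelihood F tests, two-sided, Benjamini-Hochberg adjustment over 9134 tested genes and a threshold of 0.05. Alternatives were other scalings, DESeq2 1.42.0, limma-voom in limma 3.58.1, other filters, a replicate block and leaving out each library. Libraries held 11070295 to 15581752 counts, and no pair of replicates agreed within sampling noise. Gene symbols came from the table or the supplied symbol table. RpS14a and RpS14b share a symbol in the table and were separated by gene identifier. Overlaps came from Ensembl release 115 exons, whose gene coordinates were identical for 98.5% of 14018 shared identifiers. The script was tested on simulated data. Members were also fitted against the summed counts of all members. The members, lists and naming rule were chosen with earlier results of these data known. Named were called members, the 8 lowest p, the 6 highest and 6 lowest fold changes, both copies of each pair, the stalk, ubiquitin-fusion and untested genes, sta, RpS12 and RpS21, and from other lists the 2 lowest p and called genes. RpL3, RpL32, RpS25 and the others named for RasV12 replicate 2, and the overlapping genes, were chosen after their values were seen. For 1 member, values are not reported here.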

Additional observations from a re-analysis of the deposited data

How the results depend on the processing

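No member was called lower under any alternative run. The number called higher was 2 with the other scalings except library totals, without ribosomal RNA and mitochondrial rows and with no filter, and 3 by DESeq2, by limma-voom and at 10 CPM in 3 libraries. Scaling by library totals gave 0 members and a median log2 fold change of 0.034, a replicate block gave 0 members and 701 called genes in all, and leaving out replicate 2 of both genotypes gave 1. Leaving out each library gave 0 to 5 members, a median of 0.12 to 0.22, 741 to 1521 called genes in all and a share difference of -0.157 to 1.16 percentage points. Deviations from the group means correlated at -0.03, -0.41 and -0.09 between same-numbered libraries and at -0.48 to 0.54 between the others. The labels do not say whether the numbers pair samples. These correlations cannot settle it, since the deviations within a group are tied to each other. With the replicate block RpL18 and RpS14b had edgeR adjusted p of 0.0869 and 0.0886.

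Members near 0 changed sign. Scaling by totals gave -0.085 for RpS15Ab, -0.015 for RpS15Aa, -0.091 for RpL34a, -0.030 for RpS5a, -0.032 for RpS19a, -0.12 for RpS10b, -0.11 for RpS28b, -0.079 for RpL40, -0.14 for RpS27A and -0.13 for sta. RpS27A was -0.0086 with relative log expression scaling and by DESeq2, -0.0060 with upper quartile scaling, -0.033 without ribosomal RNA and mitochondrial rows and -0.039 with no filter. Without those rows RpS10b was -0.0080 and sta -0.016, and with no filter RpS10b was -0.014, RpS28b -0.0026 and sta -0.020. Leaving out single libraries gave -0.42 to 0.044 for RpL22, -0.15 to 0.036 for RpL14, -0.11 to 0.12 for RpS20, -0.092 to 0.026 for RpL38, -0.19 to 0.20 for RpS15Ab, -0.0024 to 0.12 for RpL34a, -0.022 to 0.21 for RpS5a, -0.046 to 0.058 for RpS10b, -0.076 to 0.10 for RpS28b, -0.041 to 0.22 for RpL40, -0.088 to 0.055 for RpS27A and -0.090 to 0.21 for sta. The cause was not tested.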

Other observations

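The 4 rows named as "like" copies, which the symbol rule leaves out, were read beside their namesakes. RpL22-like, known in Drosophila for its expression in the testis, had 7, 14 and 11 counts in RasV12, against 35, 64 and 44 counts in GFP-i. The groups did not overlap, and the log2 fold change was -1.93 ± 0.41 (SE, n = 3 per group; edgeR adjusted p = 0.0106), while RpL22 itself overlapped at -0.20 ± 0.23. RpL24-like, whose product is known as a large subunit assembly factor, had 422, 446 and 324 CPM in RasV12, against 342, 282 and 318 CPM in GFP-i, which overlapped (0.34 ± 0.15, adjusted p = 0.167). RpLP0-like had a mean ± SD of 34.3 ± 10.4 CPM in RasV12 against 33.5 ± 7.23 CPM in GFP-i (n = 3 each; edgeR adjusted p = 0.954). RpS28-like had 12, 1 and 3 counts in RasV12, against 0, 0 and 1 counts in GFP-i, and was not tested.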
